A study of Mus musculus with 2 samples.

Results

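The miRNA genes examined here lie inside a long intron of Sfmbt2, a Polycomb-group gene, on mouse chromosome 2. Members were chosen by position: every miRNA gene of the GENCODE M21 annotation on the plus strand that lies wholly within Sfmbt2 (chr2:10370510-10595253, mm10) and is listed in both deposited tables. This gave 119 genes of the 2202 in the tables. By name, 5 are miR-297 genes, 23 miR-466, 14 miR-467 and 29 miR-669, and 48 carry provisional names beginning with Gm. Short RNAs were sequenced from total RNA of adrenal glands of female B6CASTF1/J mice, an F1 hybrid strain, at 2 months of age, and the labels name no treatment. There was a single group of 2 libraries, called replicate 1 and replicate 2, whose tissue labels number different females but whose donor label is the same. No second condition was sampled, so the comparisons are between members and between the libraries, and the spread between the libraries may be partly technical.

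Sfmbt2 is imprinted in the mouse, with expression from the paternal allele in extraembryonic tissue, and its intron carries a miRNA array that expanded in rodents and is best known from the placenta and trophoblast. A miRNA is cut from a hairpin and guides silencing of mRNAs through its seed, the bases near its 5′ end. miR-467 is known for repressing thrombospondin-1, an inhibitor of vessel growth, miR-669a for restraining muscle genes in heart progenitors, and miR-466l for binding the Il10 mRNA. The adrenal gland makes steroid hormones in its cortex and catecholamines in its medulla.

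None of the 119 members matched the RefSeq sequence table (GRCm38.p6), while 8 of the 10 genes with these family names outside Sfmbt2 had a mature sequence there. The 5 with the longest exact match to a member hairpin are shown, because long runs of their letters recur in the array. Capitals mark the seed, bases 2 to 8 counted from the 5′ end, and no seed is shared among the 5.
mmu-miR-466i-3p (chromosome 13, plus strand): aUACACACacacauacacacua
mmu-miR-466j (chromosome 10, plus strand): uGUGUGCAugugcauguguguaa
mmu-miR-466k (chromosome 3, plus strand): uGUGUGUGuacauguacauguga
mmu-miR-467h (chromosome 9, plus strand): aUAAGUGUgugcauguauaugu
mmu-miR-669n (chromosome 3, plus strand): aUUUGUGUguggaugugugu

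No member hairpin held any of these mature sequences whole. miR-466i-3p came closest within Mir466f-2, whose hairpin matched 21 of its 22 bases in a row. For miR-466j a match of 22 of 23 bases was found in 10 members, Mir297a-2 among them, and for miR-466k the same length was found in 9. miR-669n matched 18 of its 20 bases in Mir669c, and miR-467h matched 18 of 22 bases in 3 members including Mir669d. The seed letters themselves were common in the array. That of miR-466j, read as DNA on the hairpin strand only, occurred in 62 members (52.1%) against 2.11% of the other hairpins of the tables, and that of miR-466i-3p in 60 members (50.4%) against 5.76%. The seed of miR-467h occurred in 1 member. These are matches of letters and do not mark processed arms.

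Dinucleotide repeats were frequent in some families of the array and not in others. The letters ACACACAC or, on the other strand, GTGTGTGT were present in 73 of the 119 member hairpins (61.3%) and in 7.83% of the other hairpins. All 14 miR-467 hairpins, 21 of 23 miR-466 hairpins and 20 of 29 miR-669 hairpins held the motif. It was found in 18 of the 48 Gm-named hairpins (37.5%) and in 0 of the 5 miR-297 hairpins. Member hairpins had a median GC content of 37.3% (range 29.0 to 43.4%), compared with 51.7% for the other hairpins, and a median length of 98 bases (73 to 127).

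All 119 members lie in the same 62472-base intron (chr2:10461473-10523944), which is intron 10 of transcript Sfmbt2-201 and intron 11 of Sfmbt2-205. The other 5 of its 7 transcripts end before the array. Members span 53.0 kb, from 94.8 to 147.8 kb after the gene start, with a median gap of 206 bases between neighbours. No exon of another gene overlaps a member, and no miRNA gene was annotated on the minus strand of Sfmbt2. In the middle of the array, from Mir467a-1 to Mir467a-10, a Mir467a-type hairpin recurred every 2413 to 2470 bases with 5 or 6 genes per step, over 11 steps and 27.0 kb. The step from Mir467a-4, for example, held Mir467a-4, Mir466b-4, Mir669a-7, Gm26060, Gm26431 and Gm26229 in that order.

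The copies in this tandem were alike enough that many could not be told apart by sequence. Over the whole array 47 hairpins had the same sequence as at least 1 other member, 45 of them in the tandem, and the 119 genes held 88 distinct hairpin sequences. Mir669a-4 to Mir669a-12 were 9 genes with the same 87-base hairpin. The 83-base hairpin of Mir467a-2 was shared with Mir467a-4, Mir467a-5, Mir467a-7, Mir467a-8, Mir467a-9 and Gm25022. A stretch of 20 bases or more in common with another annotated hairpin, on either strand, was found for 117 of 119 members, and for 48.8% of the other genes in the tables, where genes annotated on opposite strands of the same place count as sharing. The longest shared stretch had a median of 81 bases in the array (16 to 127). For 33 members a stretch of at least 20 bases also occurred in a hairpin outside the locus.

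These stretches bear on the counts. The deposited values are reads per hairpin gene, and reads with several alignments stand in a row of their own, outside the gene counts. For each read counted in the array there were 1593 such reads in replicate 1 (2673681 in all) and 1350 in replicate 2 (2193599 in all), and how many of them came from the array was not tested. A level below is therefore that of assigned reads. To describe what could be assigned, each hairpin was cut into overlapping windows of 22 bases, and a window was called the hairpin's own if it occurred on neither strand of any other annotated hairpin. By this measure 65 members had at least 1 window of their own and 54 had none. The genome outside annotated hairpins was not searched. The mice are hybrids while the counts refer to mm10, and whether sequence differences of the CAST strain in the array lowered the assignment of reads was not tested. A count of 0 therefore means that no read was assigned, and the limit drawn from it is one of counting only.

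Replicate 1 had 2839732 gene counts and replicate 2 had 2280028, so 1 count was worth 0.352 and 0.439 CPM (counts per 1000000 gene counts). A gene at 0 could have had up to 3 counts, which is 1.06 CPM in replicate 1 and 1.32 CPM in replicate 2. The tables differed by more than counting noise (chi-square of 203204 on 368 degrees of freedom over 369 genes) and are not the same library deposited again. Of the marker lists, all 4 neuroendocrine miRNAs (Mir375, Mir7-1, Mir7-2 and Mir7b) were detected with a summed 40150 to 42776 CPM. All 3 miRNAs listed for the steroidogenic cortex (Mir21a, Mir132 and Mir212) were detected with 13616 to 35057 CPM. Whether the listed miRNAs are specific to these cells was not tested, so the sums do not measure cell content. The libraries differed in 9 skeletal and heart muscle miRNAs, which summed to 953 CPM in replicate 1 and 4.39 CPM in replicate 2. Of these 9, 0 were detected. Mir133a-1, Mir133a-2 and Mir133b were at 0 in both libraries, and Mir1a-1, Mir1a-2 and Mir208a were at 0 in replicate 2. Reads with several alignments are outside these counts too, so a 0 does not mean absence. The libraries also differed in 3 erythroid miRNAs, at 643 and 14488 CPM. The endothelial Mir126a was at 43203 and 59463 CPM, 4 white blood cell miRNAs summed to 1331 and 1051 CPM, and 5 kidney and liver miRNAs to 3836 and 2460 CPM. In a whole gland, fewer cells of a type and less RNA per cell cannot be told apart.

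By assigned reads, the array as a whole was a minor part of the adrenal profile. It held 1678 counts in replicate 1, a share of 0.0591% (exact 95% binomial interval 0.0563 to 0.0620), and 1625 counts in replicate 2, a share of 0.0713% (0.0678 to 0.0748), with a mean of 0.0652% ± 0.00861 (SD, n = 2). The intervals cover counting error only and do not overlap. All of these counts were on the strand of the genes: 0 reads were counted on the opposite strand, and counting without regard to strand gave the same 1678 and 1625 counts.

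Counts came from few members. Of the 119, 11 (9.24%) had a count in either library and 108 (90.8%) had 0 in both. Over all 2202 genes in the tables, 739 (33.6%) had a count in either library. At a minimum of 10 counts in both libraries, 6 members (5.04%) were detected, where 15.5% of all genes in the tables were. The 6 were Mir467d, Mir669c, Mir467e, Mir669o, Mir467c and Mir669l, all of the miR-467 and miR-669 families, and they held 98.9% of the array's counts in replicate 1 and 99.0% in replicate 2.

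**Figure D1:**
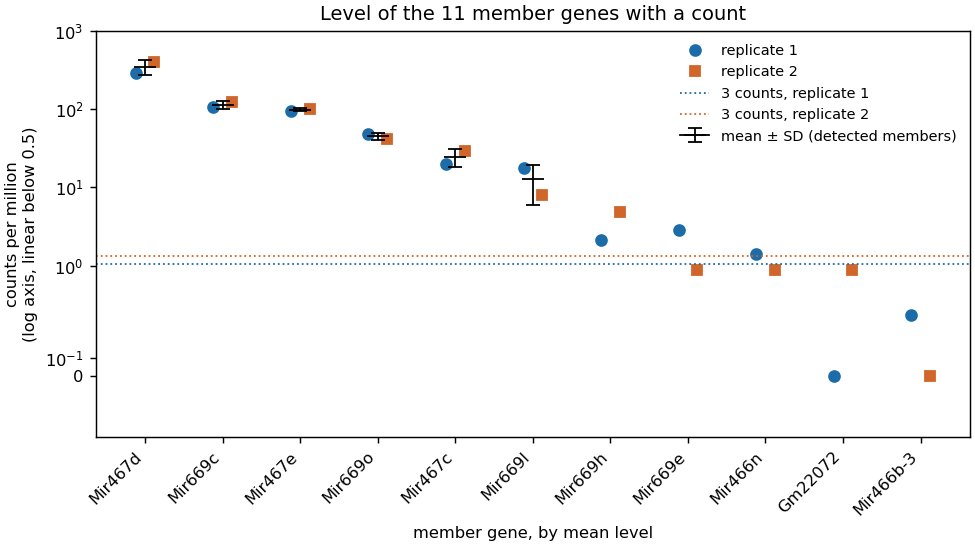
CPM (log axis, linear below 0.5) of the 11 members with a count, in replicate 1 (circles) and replicate 2 (squares), with the mean ± SD of the 6 detected members as bars and the level of 3 counts as dotted lines. Mir467d stands highest at 295 and 401 CPM, and Mir466n, Gm22072 and Mir466b-3 lie near or below the dotted lines.

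Mir467d (ENSMUSG00000077021.2, chr2:10507630-10507714) led the array with 839 counts in replicate 1 and 915 in replicate 2, or 295 and 401 CPM (348 ± 74.9 CPM, SD, n = 2). It alone made up 50.0% and 56.3% of the array's counts. Among the 342 detected genes of the tables it ranked 126th by mean level, and it was the only member above their median of 130.5 CPM. Mir669c (ENSMUSG00000076118.1, chr2:10509296-10509404), 4 genes further on, had 300 and 282 counts, or 106 and 124 CPM (115 ± 12.8 CPM). Mir467e (ENSMUSG00000076948.2, chr2:10505721-10505807), 4 genes before Mir467d, had 274 and 232 counts, or 96.5 and 102 CPM (99.1 ± 3.72 CPM). Mir467d exceeded Mir669c by 2.80-fold and 3.24-fold in the 2 libraries, more than their SDs. The step from Mir669c to Mir467e was in the same direction in both libraries. With scaling by library totals it was smaller than the sum of their SDs, so these neighbours in rank were not separated. That depended on the scaling. They were at 114.4 ± 6.26 and 99.1 ± 1.90 CPM with TMM scaling. With median-of-ratios scaling they were at 113.8 ± 3.50 and 98.7 ± 4.26 CPM. Under both of these the step exceeded the sum of the SDs.

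Lower in the order, Mir669o (ENSMUSG00000077086.1, chr2:10514300-10514395) had 139 and 95 counts, or 48.9 and 41.7 CPM (45.3 ± 5.15 CPM). Mir467c (ENSMUSG00000077049.2, chr2:10473931-10474027) had 57 and 66 counts, or 20.1 and 28.9 CPM (24.5 ± 6.28 CPM). Mir669l (ENSMUSG00000076959.1, chr2:10468971-10469068) had 50 and 18 counts, or 17.6 and 7.89 CPM (12.8 ± 6.87 CPM). Mir467e lay above Mir669o, and Mir669o above Mir467c, by more than the sum of the SDs, while Mir467c and Mir669l were not separated. Just outside the minimum stood Mir669h, the last gene of the array, with 6 and 11 counts (2.11 and 4.82 CPM). Mir669e had 8 and 2 counts, Mir466n 4 and 2, Gm22072 0 and 2, and Mir466b-3 1 and 0. Of these 5 undetected members, Mir669h was above the level of 3 counts in both libraries.

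By name family, the 14 miR-467 genes took 69.7% of the array's counts in replicate 1 and 74.6% in replicate 2 (72.2% ± 3.48), from 3 genes with a count: Mir467c, Mir467d and Mir467e. The other 11 miR-467 genes, Mir467a-1 to Mir467a-10 and Mir467b, were at 0. The 29 miR-669 genes took 30.0% and 25.1% (27.5% ± 3.44) from 5 genes, Mir669c, Mir669o, Mir669l, Mir669h and Mir669e, and 24 were at 0, among them all the Mir669a copies. In contrast, the 23 miR-466 genes held 5 counts in replicate 1 and 2 in replicate 2, from Mir466n and Mir466b-3. No count fell on the 5 miR-297 genes. Of the 48 Gm-named genes, Gm22072 alone had counts, 2 in replicate 2.

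**Figure D2:**
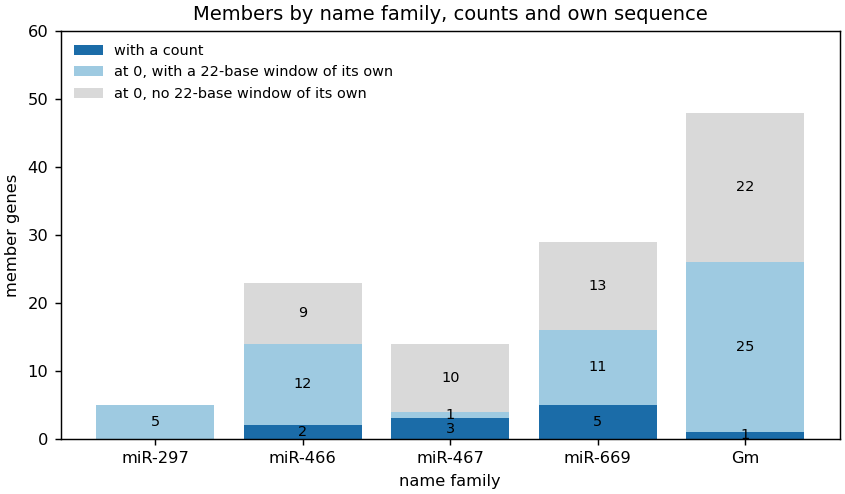
Number of member genes in each name family, split into genes with a count in either library, genes at 0 with at least 1 window of 22 bases of their own, and genes at 0 with none. In the miR-467 family 10 of the 11 genes at 0 have no window of their own, whereas all 5 miR-297 genes have one and are at 0. Of these, Mir297a-2, Mir297a-3 and Mir297a-4 have none wholly on the 5′ side of the hairpin's midpoint.

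Counts and own sequence were set side by side. All 11 members with a count had windows of their own, from 24 windows for Mir466b-3 to 95 of 98 for Mir669e. The 54 members with no window of their own had no count in either library. Any read of up to 22 bases from them also matches another hairpin and would stand outside the gene counts, so their 0 gives no information on their level. A further 54 members had windows of their own and no count. Among these were Mir466g, whose 59 windows were all its own and whose longest shared stretch was 16 bases, Gm22239 with 82 of 82 windows, and Mir466h with 58 of 60. For them the counting limit on assigned reads was 1.06 CPM in replicate 1 and 1.32 CPM in replicate 2, with the part of CAST sequence in these zeros not tested. Own windows in these 54 ran from 2 to 93. Some had none wholly on 1 side of the hairpin's midpoint, such as Mir297a-2 on the 5′ side (0 of 24) and Gm24315 on the 3′ side (0 of 43). The limit does not cover reads of up to 22 bases from such a side. Other sides had few own windows, such as the 3′ side of Mir669d-2 (1 of 22) and of Gm25673 (2 of 43). There the limit covers only reads that hold an own window. Among genes with a window of their own, 3 of 4 miR-467 genes, 5 of 16 miR-669 genes, 2 of 14 miR-466 genes and 0 of 5 miR-297 genes had a count. These fractions do not compare levels between families, because a window of its own need not lie on both sides of a hairpin. On the 5′ side Mir297a-2, Mir297a-3, Mir297a-4, Mir466f-1, Mir466f-3, Mir466o and Mir466d had 0 own windows. The same held for Mir467b, Mir669g and Mir669k. On the 3′ side Mir669j and Mir466b-2 had 0. The level did not follow the amount of own sequence among the detected members, as Mir467d had the fewest own windows (25 of 64) and the highest level, and Mir669c had the most (73 of 88) and ranked below it.

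The position of the own windows also differed between the detected members, counting windows that lie wholly on 1 side of the hairpin's midpoint. Mir467d had 19 of its 21 windows on the 5′ side as its own and 6 of 22 on the 3′ side. The order was opposite in Mir669c, with 18 of 33 on the 5′ side and 34 of 34 on the 3′ side, and in Mir467c, with 18 of 27 and 28 of 28. Mir467e (20 of 22 and 19 of 23), Mir669l (20 of 28 and 21 of 28) and Mir669o (15 of 27 and 14 of 27) were even. Counts are per hairpin and do not say from which side the reads came. For Mir467d the longest shared stretch was 60 bases of its 85, found in 10 members including Mir467a-3, Mir467a-5, Mir467a-7 and Mir467a-9. Mir467c and Mir467e shared their longest stretch, 48 bases, with each other. For Mir669l it was 57 bases with Mir669d, for Mir669o 38 bases with 12 members including Mir669a-1, and for Mir669c 36 bases with Mir669a-3.

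**Figure D3:**
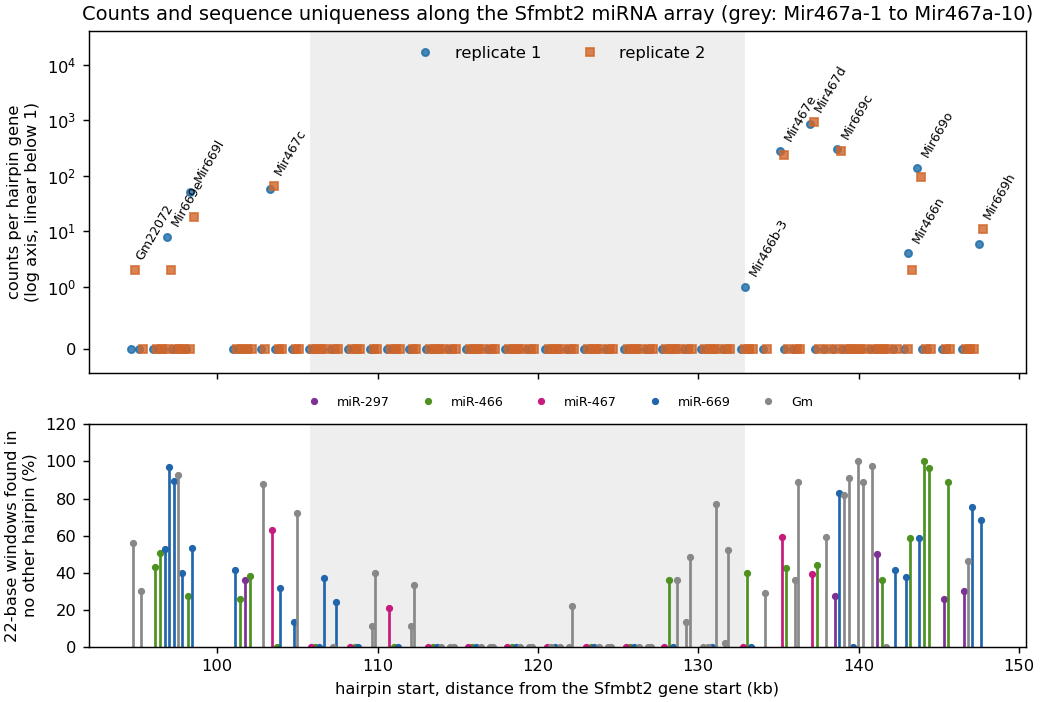
Upper panel, counts per member (log axis, linear below 1) in replicate 1 (circles) and replicate 2 (squares, drawn side by side) against the distance of the hairpin from the Sfmbt2 gene start in kb. Lower panel, the percentage of each hairpin's windows of 22 bases found in no other annotated hairpin, coloured by name family; grey marks the tandem from Mir467a-1 to Mir467a-10, where all 65 members are at 0.

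Along the array the counts lay at both ends. The 21 members before the tandem, Gm22072 to Gm26491, held 115 counts in replicate 1 and 88 in replicate 2, from Mir467c, Mir669l, Mir669e and Gm22072. The 65 members of the tandem held 0 counts in both libraries, and 50 of them had no window of their own. The 33 members after it, Mir466b-3 to Mir669h, held 1563 and 1537 counts, or 93.1% and 94.6% of the array's total. In that last segment 3 of 33 members had no window of their own, and 1 of 21 in the first. The longest unbroken run of members at 0 was 69 genes over 29.1 kb, from Mir466b-1 to Mir467a-10. Mir467e, Mir467d and Mir669c, the 3 members of highest level, lie within 3.7 kb of each other. Other members between them, such as Mir466p, Mir466 and Mir297c, were at 0. Own windows of these were 29 of 68, 23 of 52 and 21 of 77, with 1 of 15 on the 5′ side of Mir466. Reads from their other windows would not be assigned.

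The libraries were then compared gene by gene with an exact two-sided binomial test of the counts given the library totals, adjusted by Benjamini-Hochberg over the 369 genes whose mean count reached 10. The test compares these 2 libraries and not conditions. To pass, a gene needed 2-fold or more between the libraries and an adjusted p below 0.05, and 18.7% of the genes tested passed. Of the 6 members tested, 1 passed. Mir669l was 2.23-fold higher in replicate 1 (exact 95% interval 1.28 to 4.06, adjusted p = 0.00607 by the exact binomial test). The muscle list summed to 953 CPM in the first library and to 4.39 CPM in the second. The 3 miRNAs listed for the steroidogenic cortex summed to 35057 and 13616 CPM, and the erythroid list to 643 and 14488 CPM. The part of these lists in the Mir669l difference was not tested.

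For Mir467d the ratio of replicate 2 to replicate 1 was 1.36 (1.24 to 1.49), with an adjusted p of 4.51e-10 in the exact binomial test. It did not reach 2-fold. This ratio is for scaling by library totals, where the SD of Mir467d between the libraries was 74.9 CPM. That SD was 55.1 CPM with TMM scaling and 46.6 CPM with median-of-ratios scaling. An adjusted p below 0.05, without the condition on size, was common to 231 of the 369 genes tested (62.6%) and to 2 of the 6 members, Mir467d and Mir669l. Mir467c had a ratio of 1.44 (0.996 to 2.09), Mir669c 1.17 (0.992 to 1.38), Mir467e 1.05 (0.882 to 1.26) and Mir669o 0.851 (0.649 to 1.11), and the adjusted p of these 4 in the exact binomial test ran from 0.0711 to 0.647. The median log2 ratio of the 6 members was 0.15, and that of all 369 genes 0.07. The members other than Mir467d together held 839 counts in replicate 1 and 710 in replicate 2, or 295 and 311 CPM, while Mir467d alone went from 295 to 401 CPM between these libraries.

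**Figure D4:**
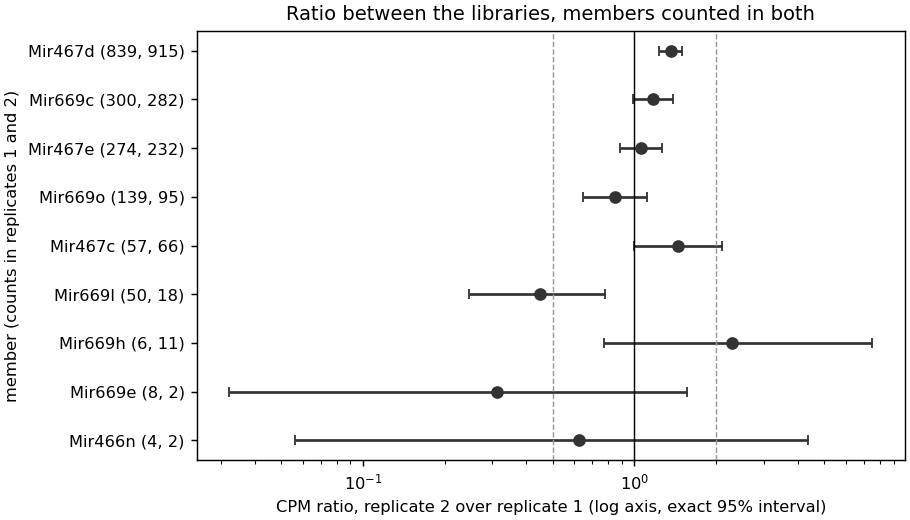
Ratio of CPM in replicate 2 to replicate 1 (log axis) with exact 95% intervals for the 9 members counted in both libraries, with their counts in brackets and dashed lines at 2-fold. Mir669l, at 0.448, is the member whose point lies beyond 2-fold with an interval that does not reach 1, and the intervals of Mir669e, Mir669h and Mir466n span a wide range.

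Values of the array's namesakes and of another imprinted array are given for comparison, with no test between them. All are levels of assigned reads, and the part of shared sequence in them was not tested. Of the 10 genes with the same family names outside Sfmbt2, 9 were at 0 in both libraries and Mir466q had 1 count in replicate 2. The 38 plus-strand miRNA genes from Mir379 to Mir410 in the Mirg region of chromosome 12, which are expressed from the maternal allele, held 2.38% and 2.50% of all gene counts (2.44% ± 0.0885), with 32 of 38 detected. The most abundant of them, Mir379, was at 5130.5 ± 323 CPM, compared with 348 ± 74.9 CPM for Mir467d. The counts do not separate the 2 parental alleles, so imprinting was not examined.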

How the data were processed

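The deposited tables hold read counts per miRNA gene for each library, not normalized. Their genes are those of GENCODE M21 on mm10, per the deposited sample information. Aligner, counter and versions are not given in the sources used here. The authors counted reads without regard to strand and on each strand, and of the last 2 columns the larger in total was taken as the sense strand. Of 9278190 and 8659511 reads, the 4 rows that name no gene held 69.4% and 73.7% and were left out of totals and tests. By their names these are reads that were unmapped, multimapping, in no feature or ambiguous.

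Members, marker lists and thresholds were chosen with earlier results of these data known. Full values are given for members with 10 or more counts in both libraries, and counts for every other member with a read. Hairpins for the comparison of stretches came from the GENCODE M21 transcript sequences (2202 hairpins), and mature sequences from RefSeq (GRCm38.p6). Counts were scaled to 1000000 per library. The exact tests used scipy 1.17.1 and were checked on simulated counts that held planted differences and counting noise only. The libraries differed by more than counting noise, so that check does not cover the calls between them. Scaling factors came from edgeR 4.0.16 (TMM) and DESeq2 1.42.0 (median of ratios) as alternatives. No molecular identifiers are stated, so intervals and limits cover counting error only. Alternatives changed the strand column, denominator, count minimum, scaling, stretch length, or left out a library.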

Additional observations from a re-analysis of the deposited data

Results flagged for a closer look

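Reads that aligned to several places lie outside the values described here and stand above the 3 counts that a count of 0 allows. They numbered 2673681 in replicate 1 and 2193599 in replicate 2, against 1678 and 1625 counts assigned to the array. The share of them that came from the array was not tested. With 2 libraries in a group, a library far from the others was not looked for.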

How the results depend on the processing

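The array's mean share of 0.0652% became 0.0759% with counts taken without regard to strand, where other genes lose reads and the array does not, and 0.0184% of all reads. It was 0 among members with no shared stretch, since both such members, Mir466g and Gm22239, had no count. Without Mir467d, an alternative chosen after seeing the data, it was 0.0303%. Leaving out a library gave 0.0591% and 0.0713%. The number of detected members was 7 at a minimum of 5 counts and 5 at 20, and 6 or 7 with 1 library left out. At a mean count of at least 100, 0 members differed between the libraries, as Mir669l, with a mean count of 34, was no longer tested. Under the other 4 settings Mir669l was the member that passed, with a ratio of replicate 2 to replicate 1 from 0.400 to 0.466 and an adjusted p from 0.00116 to 0.0120 (exact binomial test). The Mirg region's 2.44% became 2.64% without regard to strand, likewise chosen after seeing the data. Scaling by TMM or by median of ratios moved the median log2 ratio of all genes tested from 0.07 to -0.04 and -0.09. The number of members with a shared stretch was 117 at 18 and at 22 bases. Of 30 alternative values for the detected members' levels, 3 moved by more than the SD, those of Mir669c, Mir467e and Mir669o without regard to strand. Leaving out a library leaves no comparison between libraries. No paired analysis was possible because there is a single group. Levels near 3 counts are not separated at this depth.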

Other observations

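Several genes with provisional names were copies of named members. The hairpin of Gm25022 was the same as that of Mir467a-2 and 5 other Mir467a genes, that of Gm25943 the same as Mir466b-4 and Mir466b-6, that of Gm25285 the same as Mir466c-2, and that of Gm26092 the same as Mir669a-1. All of these genes were at 0 in both libraries. Other Gm-named hairpins matched each other without a named partner, such as Gm25701, Gm26431 and Gm24488, 3 genes with the same hairpin of 127 bases.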
